A study of Mus musculus with 12 samples.

Results

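Regulatory, natural killer T (NKT) and cytotoxic T cell genes were followed through 3 ages of the mouse thymus. The 10 genes were Foxp3, Ikzf2, Ctla4, Zbtb16, Klrb1c, Tbx21, Eomes, Nkg7, Gzma and Gzmb, chosen by symbol as markers of T cells that leave the conventional path or accumulate as mature cells after birth, and they are 10 of the 22843 gene sums in the mRNA table. RNA came from the whole thymus of male wild type C57BL/6 mice, for which no treatment is named, at 2 weeks (2W), 6 weeks (6W) and 3 months (3M) of age, with 2 biological replicates per age. Each library is the whole organ, so thymocytes, stroma and blood were measured together, and fewer cells of a type cannot be told apart from less RNA per cell. The design asks how the thymus changes while it grows, from 2W to 6W, and as it begins to decline, from 6W to 3M.

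Regulatory T cells restrain other T cells and arise in the thymus under the factor Foxp3, with Ikzf2 (Helios) and the inhibitory receptor Ctla4 as companions. NKT cells are selected on lipids shown by CD1d and acquire their innate-like state through the factor Zbtb16 (PLZF), and many of them carry Klrb1c, the NK1.1 receptor. The T-box factors Tbx21 (T-bet) and Eomes direct the cytotoxic program of NK cells, NKT1 cells and CD8 T cells, whose granules carry the serine proteases Gzma and Gzmb and the membrane protein Nkg7.

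From 2W to 3M Zbtb16 and Klrb1c, listed here under NKT and innate-like cells, and Nkg7 rose. The cells that carried this RNA were not identified. Over 16 other genes listed under NKT and innate-like cells the median log2 fold change was 0.10, beside -0.03 over all tested genes. The 3 regulatory T cell genes, the 2 T-box factors and the 2 granzymes did not pass the test. Klrb1c rose 7.61-fold (log2 fold change 2.93 ± 0.34, SE), Zbtb16 rose 2.47-fold (1.30 ± 0.24) and Nkg7 rose 2.31-fold (1.21 ± 0.17), each with 2 libraries per age. Klrb1c was also called from 2W to 6W, at 4.10-fold, a call that was lost without any one of the 4 libraries compared. The 3 calls from 2W to 3M also depended on single libraries, as given below for each gene. Gzmb (2.81-fold) and Eomes (2.70-fold) changed more from 2W to 3M than Zbtb16 and Nkg7, with larger standard errors. The mean of Foxp3 was highest at 6W and lowest at 3M, without passing the test in any comparison. Levels are given as normalised counts (CPM), that is, estimated counts of all transcripts of a gene relative to the TMM-scaled library size and scaled to 1000000. A gene was called when the Benjamini-Hochberg adjusted p of edgeR's quasi-likelihood test over 14805 tested genes was under 0.05.

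The 6 libraries held 16519753 to 22553481 estimated counts, and all 10 members passed the filter on low counts. The T cell receptor complex list of 8 genes, Cd3e among them, summed to 2435 to 3381 CPM, so that thymocyte RNA was present in all 6 libraries. 3M replicate 2 stood apart in its red blood cell markers, which summed to 2162 CPM against 401 to 814 CPM in the other libraries. The member counts are given without this library below, and its part in the results was not tested further.

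The promoters of 3 members are shown as examples. They hold the letters of a motif of T-box factors or of RUNX factors, which act with T-box factors in cytotoxic cells. Each is the 250 bases before the transcription start in RefSeq GRCm38.p6, written 5′ to 3′ on the strand of the gene, with capitals marking TGTGGT or ACCACA (RUNX, either strand) and GGTGTGA or TCACACC (T-box, either strand). The windows lie at chr6:128788642-128788891 on the minus strand (Klrb1c), chr7:43436888-43437137 on the plus strand (Nkg7) and chr14:56262335-56262584 on the minus strand (Gzmb).
Klrb1c: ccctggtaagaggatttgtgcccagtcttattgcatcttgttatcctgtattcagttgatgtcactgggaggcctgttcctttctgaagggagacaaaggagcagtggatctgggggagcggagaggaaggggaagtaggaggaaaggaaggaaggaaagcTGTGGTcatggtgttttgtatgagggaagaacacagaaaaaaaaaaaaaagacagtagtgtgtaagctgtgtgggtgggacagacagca
Nkg7: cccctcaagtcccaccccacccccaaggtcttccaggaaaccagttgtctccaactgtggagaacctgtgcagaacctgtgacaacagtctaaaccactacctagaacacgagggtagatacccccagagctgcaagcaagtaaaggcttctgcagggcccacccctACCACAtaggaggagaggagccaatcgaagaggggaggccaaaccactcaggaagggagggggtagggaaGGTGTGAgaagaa
Gzmb: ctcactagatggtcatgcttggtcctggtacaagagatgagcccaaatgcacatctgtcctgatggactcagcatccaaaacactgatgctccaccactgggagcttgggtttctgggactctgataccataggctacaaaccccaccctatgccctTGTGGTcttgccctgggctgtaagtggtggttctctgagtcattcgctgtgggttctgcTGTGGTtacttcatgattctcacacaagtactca

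The RUNX letters lay in 4 of 9 promoter windows found for 8 of the members, those of Gzma, Gzmb, Klrb1c and Nkg7, against 14.0% of 32851 promoter windows of the same length. Gzmb held them at 2 places, 93 to 88 and 34 to 29 bases before the start. Klrb1c held them 89 to 84, Nkg7 83 to 78 and Gzma 50 to 45 bases before the start. The Gzma window is not printed. The T-box letters lay in 1 of the 9 windows, that of Nkg7 at 13 to 7 bases before the start, against 3.33% of all windows. Foxp3 has 2 windows, and neither they nor those of Ctla4, Eomes and Tbx21 held either set of letters. Zbtb16 and Ikzf2 were not matched. A match is a description of letters and not evidence of binding.

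Among the regulatory T cell genes, Foxp3, the factor that defines the lineage, stood at 1.71 and 2.57 CPM at 2W, 3.16 and 3.30 CPM at 6W, and 1.62 and 1.61 CPM at 3M. Both 6W libraries lay above all others and both 3M libraries below all others on this scale. The 3M values rest on 27.0 and 36.0 estimated counts, and that of 2W replicate 1 on 27.0. On the deposited FPKM, Foxp3 in 2W replicate 1 (0.55) lay below both 3M libraries (0.59 and 0.58). Its log2 fold change was 0.59 ± 0.32 from 2W to 6W (edgeR adjusted p = 0.357), -0.99 ± 0.32 from 6W to 3M (unadjusted p = 0.0182, adjusted p = 0.276) and -0.40 ± 0.33 from 2W to 3M (adjusted p = 0.477).

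Ikzf2, an Ikaros family factor that also marks early and self-reactive thymocytes, stood at 188 and 200 CPM at 2W, 192 and 189 CPM at 6W, and 262 and 177 CPM at 3M. The ages overlapped in all 3 comparisons, and the 2 libraries at 3M lay further apart than the ages. Its log2 fold changes of -0.03 ± 0.18, 0.20 ± 0.18 and 0.17 ± 0.18 from 2W to 6W, 6W to 3M and 2W to 3M had edgeR adjusted p from 0.596 to 0.943. Without 3M replicate 1 the last 2 were -0.10 and -0.11. Ctla4, the receptor that competes with CD28 for its ligands, stood at 7.33 and 8.77 CPM at 2W, 11.0 and 8.69 CPM at 6W, and 11.3 and 9.18 CPM at 3M. Both 3M libraries lay above both 2W libraries, with a log2 fold change of 0.34 ± 0.21 (edgeR adjusted p = 0.339), and the 6W libraries overlapped with both other ages.

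Zbtb16, the factor of innate-like T cells, stood at 10.3 and 6.87 CPM at 2W, 16.7 and 12.0 CPM at 6W, and 20.9 and 21.5 CPM at 3M. The 3 ages did not overlap and followed the order 2W, 6W, 3M. The rise from 2W to 3M passed the test with a log2 fold change of 1.30 ± 0.24 (edgeR adjusted p = 0.0225), while the steps from 2W to 6W (0.74 ± 0.24, adjusted p = 0.188) and from 6W to 3M (0.56 ± 0.24, adjusted p = 0.349) did not. This call was lost without 2W replicate 1 (adjusted p = 0.0531), 2W replicate 2 (0.0894) or 3M replicate 2 (0.05, at the threshold), and the adjusted p ranged from 0.000178 to 0.0894 over all alternatives.

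Klrb1c, which encodes the NK1.1 antigen of this strain, stood at 1.09 and 1.04 CPM at 2W, 4.75 and 3.97 CPM at 6W, and 6.07 and 10.1 CPM at 3M. Its 2W values rest on 17.3 and 17.0 estimated counts, against 90.0 to 225 at the later ages. The 3 ages did not overlap, and both 2W libraries lay far below the rest. It rose from 2W to 6W with a log2 fold change of 2.04 ± 0.34 (edgeR adjusted p = 0.0444) and from 2W to 3M with 2.93 ± 0.34 (adjusted p = 0.00722), while the step from 6W to 3M gave 0.89 ± 0.29 (adjusted p = 0.282). The call from 2W to 6W was lost without any one of the libraries compared, with adjusted p of 0.159 and 0.217 without 2W replicate 1 or 2 and 0.290 and 0.174 without 6W replicate 1 or 2. It passed under 6 of the 9 alternatives other than the leave-out fits. It was lost among others when symbols were matched exactly (edgeR adjusted p = 0.0586) and with limma on FPKM at pseudocount 1 (adjusted p = 0.0585). From 2W to 3M it was lost without 2W replicate 1 (0.0530) or 2 (0.0506). Over all alternatives the log2 fold change ranged from 1.03 to 2.16 from 2W to 6W and from 1.58 to 3.27 from 2W to 3M. The Klrb1 genes are near-identical relatives whose reads could have been split in counting, so the level of Klrb1c is uncertain to that extent. Klrb1b, Klrb1f and Klrb1a stood at 0.061 to 1.82 CPM, and Klrb1a was too low to be tested while the others were not called.

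**Figure D1:**
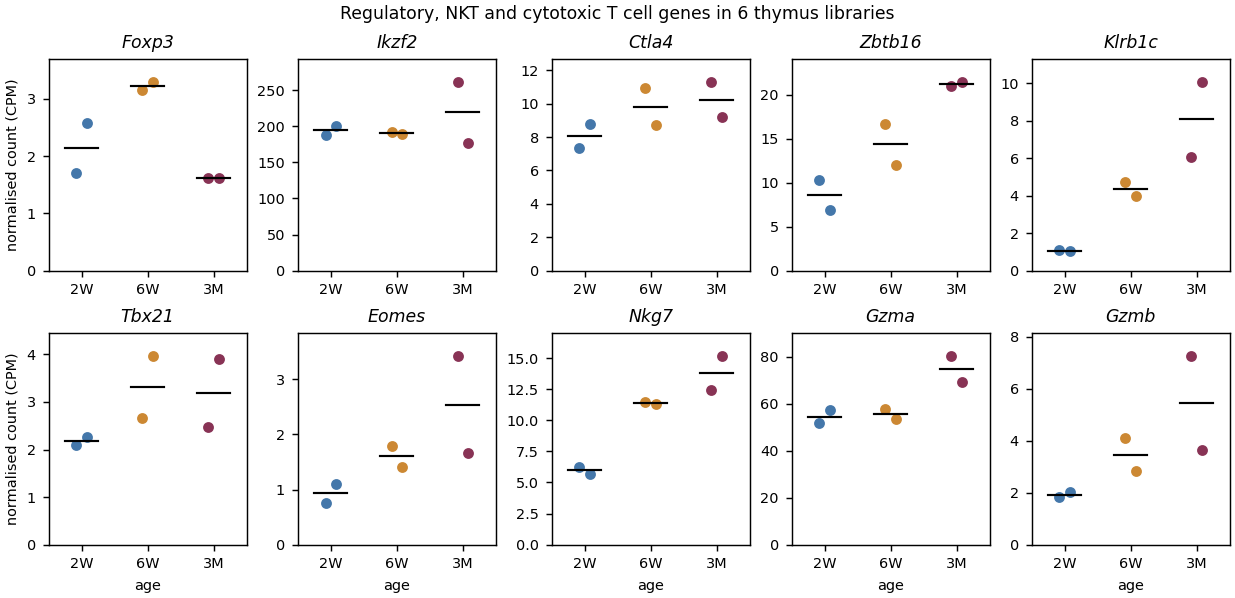
Normalised counts (CPM, linear axes from 0) of the 10 genes by age (2W, 6W, 3M), with 1 point per library and a line at the mean of 2 libraries. Zbtb16, Klrb1c and Nkg7 step up at each age without overlap, and Foxp3 peaks at 6W.

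Of the T-box factors, Tbx21 stood at 2.09 and 2.27 CPM at 2W, 2.67 and 3.97 CPM at 6W, and 2.47 and 3.90 CPM at 3M. Both later ages lay above 2W and overlapped with each other. The log2 fold change from 2W to 3M was 0.55 ± 0.35 (edgeR adjusted p = 0.368). Eomes stood at 0.76 and 1.10 CPM at 2W, 1.79 and 1.41 CPM at 6W, and 3.43 and 1.66 CPM at 3M. It rests on few reads, with 12.0 to 57.0 estimated counts per library. Its log2 fold change from 2W to 3M was 1.43 ± 0.48 (unadjusted p = 0.0219, edgeR adjusted p = 0.111), and without 3M replicate 1 it was 0.85.

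Nkg7, a granule membrane protein needed for the release of cytotoxic granules, stood at 6.26 and 5.70 CPM at 2W, 11.4 and 11.3 CPM at 6W, and 12.4 and 15.2 CPM at 3M. The 3 ages did not overlap, and the gap between 2W and 6W was wider than that between 6W and 3M. It rose from 2W to 3M with a log2 fold change of 1.21 ± 0.17 (edgeR adjusted p = 0.0117). From 2W to 6W the change of 0.93 ± 0.17 stayed just short of the threshold (edgeR adjusted p = 0.0584). The change from 2W to 6W passed it under 6 of the 9 alternatives other than the leave-out fits. Over these 9 its adjusted p ranged from 0.0137 to 0.138. Over the leave-out fits its log2 fold change ranged from 0.890 to 0.997. The call from 2W to 3M was lost without 2W replicate 1 (0.0599) or 2W replicate 2 (0.0727), in a range of 0.000168 to 0.0727.

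Gzma, the most abundant member per length, stood at 51.8 and 57.2 CPM at 2W, 57.8 and 53.4 CPM at 6W, and 80.3 and 69.0 CPM at 3M. The 2W and 6W libraries overlapped, with a log2 fold change of 0.03 ± 0.13 (edgeR adjusted p = 0.920), and both 3M libraries lay above them. The change from 2W to 3M was 0.45 ± 0.13 (unadjusted p = 0.00972, edgeR adjusted p = 0.0702). This change passed under 4 of 9 alternatives that kept both libraries of the ages compared and under none of 6 leave-out fits. Gzmb, the protease that activates caspases in target cells, stood at 1.83 and 2.02 CPM at 2W, 4.12 and 2.82 CPM at 6W, and 7.28 and 3.63 CPM at 3M. Both 3M libraries lay above both 2W libraries, and 3M replicate 2 fell within the range of 6W. The log2 fold change from 2W to 3M was 1.49 ± 0.41 (edgeR adjusted p = 0.0672). Without 3M replicate 2 it was 1.88 and called (adjusted p = 0.0262), without 3M replicate 1 it was 0.93, and the adjusted p ranged from 0.0262 to 0.223 over all alternatives. Granzymes form a gene family, and reads shared among its members could affect these sums.

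**Figure D2:**
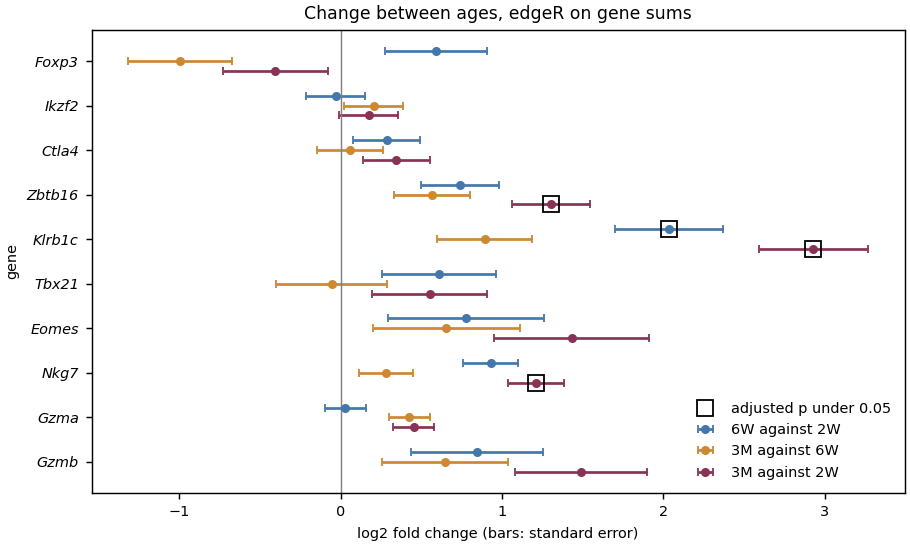
Log2 fold change of each member in the 3 comparisons from edgeR on gene sums, with bars of 1 standard error (2 libraries per age) and squares where the adjusted p was under 0.05. Klrb1c at 2.04 and 2.93, Zbtb16 at 1.30 and Nkg7 at 1.21 carry squares, and none of the changes from 6W to 3M does.

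From 2W to 6W 1 of the 10 members, Klrb1c, was called higher, against 1.47% of all tested genes, and none was called lower, against 0.263%. The same gene was past a looser threshold (a change over 1 on the log2 scale in either direction at an unadjusted p under 0.05) that 4.48% of all genes passed upwards. For 7 members both 6W libraries lay above both 2W libraries, against 28.0% of all genes, and for none did they lie below, against 29.8%. The median log2 fold change of the members was 0.67, beside -0.01 over all tested genes.

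From 6W to 3M no member was called by edgeR, DESeq2 or limma on FPKM. With no adjustment 4 members had p under 0.05 in edgeR, against 14.3% of all tested genes, 3 in DESeq2, against 9.76% of its 19335 genes, and 3 in limma, against 13.7%. After adjustment the edgeR background was 0% called higher and 0.00675% lower, which is 1 gene. None was past the looser threshold, which 1.29% of all genes passed upwards. The libraries lay apart with 3M higher for 4 members (25.9% of all genes) and with 3M lower for 1, Foxp3 (23.3%). The median was 0.35 beside 0.02 over all genes.

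From 2W to 3M 3 members (Zbtb16, Klrb1c and Nkg7) were called higher, against 7.91% of all genes, and none lower, against 3.10%. Past the looser threshold were 5 members, with Eomes and Gzmb added, against 7.67%. The libraries lay apart with 3M higher for 8 members, against 27.7%. They lay apart with 3M lower for Foxp3 on CPM but not on FPKM, against 24.0%. The median log2 fold change was 0.88 beside -0.03 over all genes. DESeq2 and limma on FPKM each called 5 members higher, against 7.88% and 8.61% of the genes they gave an adjusted p. Without 3M replicate 2, the library rich in red blood cell RNA, 3 members were called (Klrb1c, Nkg7 and Gzmb), and without either 2W library none was. The 3 comparisons share their libraries and are not independent of each other.

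**Figure D3:**
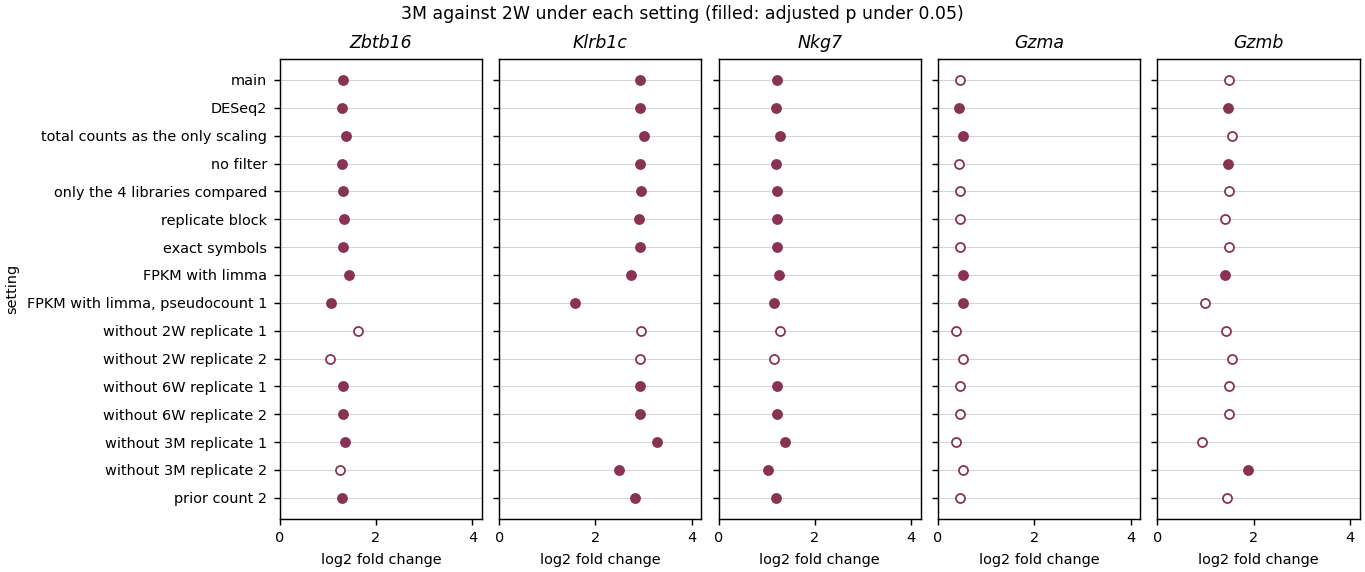
Log2 fold change from 2W to 3M of 5 members under each setting, filled where the adjusted p was under 0.05. Klrb1c stays between 1.58 and 3.27, and the filled points are lost for Zbtb16, Klrb1c and Nkg7 when either 2W replicate is left out.

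Levels were compared between genes on the per-length scale of the deposited FPKM, as mean ± SD of 2 libraries. Gzma was highest at each age, with 55.3 ± 3.99, 59.8 ± 3.73 and 79.6 ± 6.54 FPKM at 2W, 6W and 3M, followed by Ikzf2 with 25.6 ± 3.35, 27.5 ± 0.51 and 30.5 ± 5.28 FPKM. Nkg7 was next with 6.16 ± 0.50, 12.4 ± 0.18 and 15.0 ± 2.55 FPKM, and these 3 genes did not overlap at any age. Ctla4 and then Zbtb16 followed at each age, and they overlapped at 3M. Klrb1c was at rank 9 of 10 at 2W, with 0.38 ± 0.04 FPKM, and at rank 7 at 6W and 3M, with 3.23 ± 1.24 FPKM at 3M. Foxp3 ranked last at 3M, with 0.59 ± 0.01 FPKM, where it overlapped with Eomes at 0.68 ± 0.30 FPKM.

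The mRNA table lists 38 transcripts under the 10 symbols, of which 32 had a count and 22 passed the filter, among 35277 tested transcripts. None of the 22 was called at an adjusted p under 0.05 in edgeR, and no transcript in the table was, while at an unadjusted p under 0.05 3, 2 and 7 of them passed from 2W to 6W, 6W to 3M and 2W to 3M, beside 7.71%, 6.91% and 11.0% of all tested transcripts. DESeq2 was not run on transcripts. Past the looser threshold were 2 from 2W to 6W, 1 from 6W to 3M and 6 from 2W to 3M, beside 4.28%, 3.34% and 6.10% of all transcripts. The transcript ENSMUST00000167691 of Klrb1c had no count in either 2W library, 33.5 and 31.2 at 6W, and 45.4 and 141 at 3M. At 2W the estimated counts of Klrb1c went mainly to the assembled transcript TCONS_00102521, with 98.4% and 63.5% of the gene, against 16.8% to 40.4% later. The assembled Ikzf2 transcript TCONS_00004971 had 54.7 and 39.0 counts at 6W and none at the other ages, 1.38% and 0.91% of the gene. The 6 from 2W to 3M were the transcripts ENSMUST00000015581 of Gzmb, ENSMUST00000035020 of Eomes, ENSMUST00000070518 of Nkg7, ENSMUST00000093852 and ENSMUST00000216150 of Zbtb16, and that of Klrb1c, all higher at 3M. The Foxp3 counts were spread over 9 transcripts, none of them counted in every library.

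**Figure D4:**
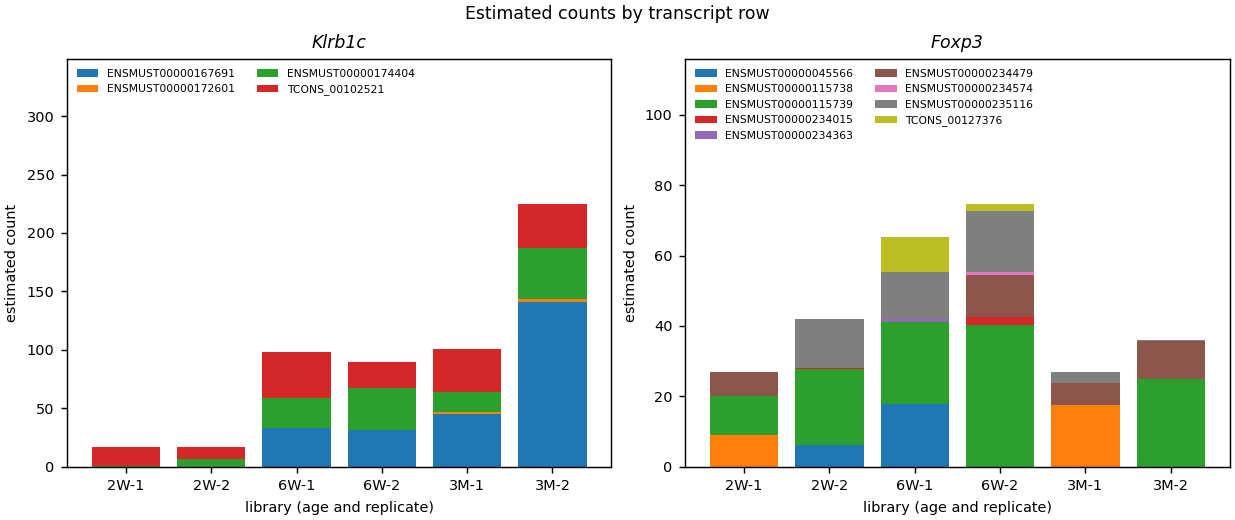
Estimated counts of the transcripts of Klrb1c and Foxp3 in each library, stacked so that the bar height is the gene sum. ENSMUST00000167691 of Klrb1c is absent at 2W and reaches 141 counts in 3M replicate 2, and the Foxp3 transcripts differ between replicates of the same age.

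Circular RNAs, counted by reads over a back-spliced junction, were listed for 2 members and are described without a test. The Ikzf2 circle, listed at chr1:69570493-69578047 (minus strand) and made of 435 bases of exons, had 1 and 6 junction counts at 2W, 7 and 6 at 6W, and 8 and 5 at 3M. These counts come from library totals of 10663 to 21914 junction counts. The Zbtb16 circle had 3 counts in 3M replicate 1 and none elsewhere, where up to 3 counts could have been missed. The table names no build for these positions. Both circles lay inside their gene in GRCm38.p6, as did 98.8% of the 6010 circles whose source gene was found there.

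The other genes of the same cell types give the members their setting. Of 17 other cytotoxic and NK genes tested from 2W to 3M, 8 rose, against 7.91% of all genes, and none fell, against 3.10%, with a median log2 fold change of 0.90 beside -0.03 over all genes. Gzmk, Klrc1, Fasl, Gzmc and Klrg1 each had under 10 estimated counts in both 2W libraries and passed the filter on low counts through later ages, which in part fixes their direction, so the count and median over the tested genes carry no weight of their own. Of the 12 genes left without these 5, 5 rose and none fell, with a median of 0.77. Klrk1, the activating receptor NKG2D, stood at 2.21 and 2.02 CPM at 2W, 5.09 and 4.32 CPM at 6W and 11.9 and 10.2 CPM at 3M, a log2 fold change of 2.38 ± 0.22 (edgeR adjusted p = 0.00561) from 2W to 3M. Gzmk, another granzyme, had no count at 2W and was at least 9.02-fold higher at 3M, taking 3 counts in the smaller 2W library as the limit. The lower limit was 13.3-fold for 3M replicate 1 alone and 4.72-fold for 3M replicate 2 alone. The others were the lectin receptors Klrc1 (3.48) and Klrd1 (1.51), the death ligand Fasl (2.65), the chemokine Ccl5 (1.13), the cytokine receptor chain Il2rb (1.05) and the granzyme B inhibitor Serpinb9 (0.60), with log2 fold changes in parentheses. Klrc1 rests on 8 and 0.68 estimated counts at 2W, and its log2 fold change was 5.57 without 2W replicate 1 and 2.64 without 2W replicate 2. From 2W to 6W Ccl5 alone was called, none of the list without any one of the 2W and 6W libraries, and 4 without either 3M library. The count of 8 from 2W to 3M was 2 and 1 without 2W replicate 1 or 2, 2 without either 6W library, 3 without 3M replicate 1 and 9 without 3M replicate 2. Prf1, the pore protein of the granules, was at 4.05 and 4.05 CPM at 2W and 6.13 and 7.17 CPM at 3M (edgeR adjusted p = 0.0783). Ncr1, a receptor of NK cells, was too low to be tested, with 3 to 9 estimated counts per library. It stood at 0.44 and 0.55 CPM at 2W, 0.29 and 0.31 CPM at 6W, and 0.18 and 0.40 CPM at 3M.

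Of 17 other regulatory T cell genes, 3 rose from 2W to 3M, against 7.91% of all genes: Itgae, the integrin CD103 (1.16), Tigit, an inhibitory receptor (1.82), and Capg, an actin capping protein (0.65), in log2 units. None fell, against 3.10%, and the median was -0.03. Itgae also rose from 2W to 6W (1.27, edgeR adjusted p = 0.0231). Without any single library of 2W or 6W only Itgae was called from 2W to 3M. Without 3M replicate 2 Itgae was called higher and Tnfrsf4 lower, and without 3M replicate 1 Itgae and Capg higher and Nrp1 lower. From 2W to 6W 13 of the 17 had a positive log2 fold change. For 10 both 6W libraries lay above both 2W libraries (28.0% of all genes), and for 2 below (29.8%). From 6W to 3M 3 were positive and none was called. For 8 both 3M libraries lay below both 6W libraries (23.3% of all genes), and for 2 above (25.9%). Il2ra, the IL-2 receptor chain of regulatory and immature T cells, stood at 103 and 113 CPM at 2W, 71.7 and 70.3 CPM at 6W and 113 and 91.2 CPM at 3M.

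Of 16 other NKT and innate-like genes tested, 3 rose from 2W to 3M (7.91% of all genes) and 2 fell (3.10%). Higher were the chemokine receptors Cxcr6 (2.07) and Cxcr3 (1.58) and the adhesion receptor Cd44 (0.60). Slamf6, a receptor used in NKT selection, and Sox13, a factor of γδ T cells, fell by 0.62 and 0.91 on the log2 scale. The median was 0.10. Cxcr6 stood at 2.66 and 3.07 CPM at 2W, 8.09 and 8.21 CPM at 6W and 14.4 and 9.72 CPM at 3M. It also rose from 2W to 6W (1.51, edgeR adjusted p = 0.0443). This call was lost, like that of Itgae, without any one of the 2W and 6W libraries. None of the 5 was called without 2W replicate 1, and Cxcr6 alone without 2W replicate 2 or either 6W library. Without 3M replicate 2 Cxcr6 and Cd44 were called, and without 3M replicate 1 Cxcr6, Cd44 and Slamf6 together with Egr2.

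**Figure D5:**
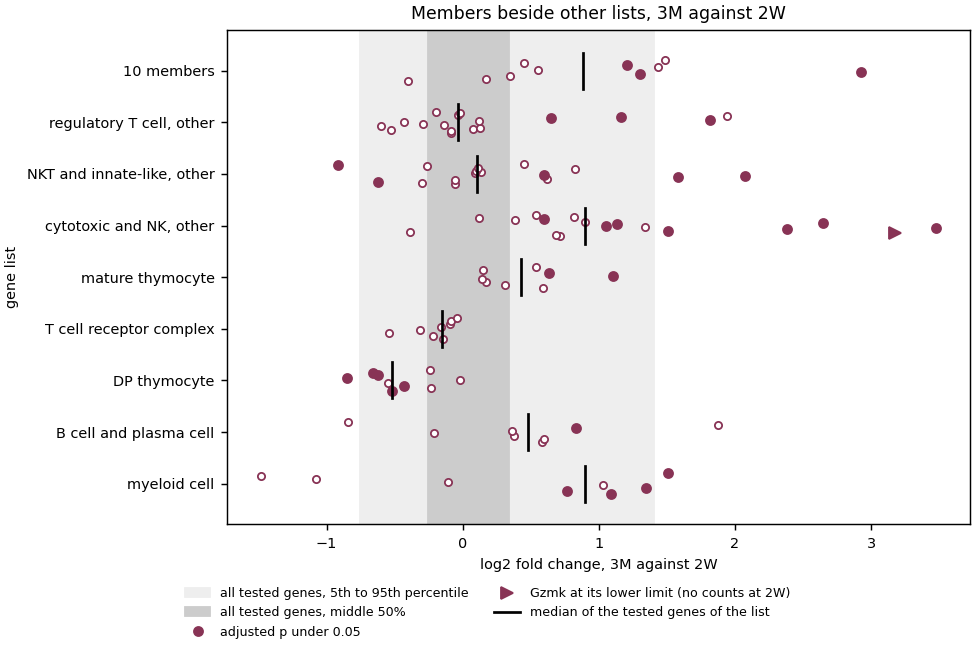
Log2 fold change from 2W to 3M of the 10 members and of the tested genes of 8 other lists, filled where the edgeR adjusted p was under 0.05, over bands of all tested genes. The median of the members is 0.88 and that of the other cytotoxic and NK genes 0.90 (0.77 without the 5 genes under 10 counts in both 2W libraries), and that of the double positive (DP) thymocyte list is -0.52.

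Lists of other cells moved over the same ages, and their part in the member results was not tested. Beside the calls below, 7.91% of all tested genes were called higher and 3.10% lower from 2W to 3M. The DP thymocyte list of 9 genes summed to 16176 to 17663 CPM at 2W and 12955 to 12968 CPM at 3M, and 5 of its genes (Cd8a, Rag1, Ptcra and Arpp21 among them) fell from 2W to 3M, against 1 without 2W replicate 1, 0 without 2W replicate 2 or either 6W library, and 4 without either 3M library. No gene of the T cell receptor complex list was called. Of the mature thymocyte list Il7r and Itgb7 rose. The myeloid list summed to 238 to 267 CPM at 2W and 539 to 557 CPM at 3M, with Csf1r, Adgre1, Lyz2 and Itgax higher, and the fat cell list to 32.5 to 35.4 CPM and 104 to 189 CPM, with Adipoq, Plin1, Fabp4 and Cidec higher. Of the 8 myeloid genes 5 had a positive log2 fold change from 2W to 3M, while the neutrophil genes S100a8 (-1.08) and S100a9 (-1.48) and the integrin Itgam (-0.11) had negative ones that were not called, and S100a8 was called lower without 3M replicate 2. S100a8 stood at 34.2 and 26.8 CPM at 6W and at 2.47 and 8.15 CPM at 3M, and S100a9 at 14.6 and 15.0 CPM and at 0.601 and 2.69 CPM. The 3M libraries differed over 3-fold from each other in both genes, and neither gene was called from 6W to 3M (edgeR adjusted p = 0.206 and 0.214). In the B cell and plasma cell list, at 366 to 459 CPM and 675 to 723 CPM, Ighm rose and made up most of the sum. Without Ighm the list was at 55.5 to 67.2 CPM at 2W and 65.8 to 80.9 CPM at 3M, and these ranges overlapped. Cd79a (2.82 to 8.63 CPM) was not called. Mzb1 (-0.84, edgeR adjusted p = 0.0524) and Cd79b (-0.21) had negative log2 fold changes that were not called, and Mzb1 was called lower without 3M replicate 1. Without 2W replicate 1 or 2 the genes called higher were 1 and 1 in the myeloid list (Lyz2), 1 and 3 in the fat cell list and 0 and 0 in the mature thymocyte list, in which Il7r alone was called without either 6W library. The call of Ighm was lost without 2W replicate 2 or either 6W library.

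The genes whose pattern over the 6 libraries was most like that of Foxp3, by the root mean square difference of centred log2 CPM among 10940 genes with a mean of at least 5 CPM, were Tmem254c (0.11), Xlr4a (0.17) and Cecr2 (0.18). Tmem254c stood at 13.5 and 16.8 CPM at 2W, 21.9 and 22.9 CPM at 6W and 12.6 and 13.0 CPM at 3M. Those most like Gzma among 10939 genes were Fut11 (0.02), Elovl5 (0.03) and the survival gene Bcl2 (0.03). Bcl2 stood at 99.6 and 116 CPM at 2W, 114 and 107 CPM at 6W and 164 and 142 CPM at 3M. Likeness over 6 libraries is a description of these libraries.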

How the data were processed

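RNA of the thymus was depleted of rRNA, made into strand-marked (dUTP) libraries and sequenced on an Illumina instrument. The authors deposited estimated counts per transcript, which need not be whole (84.2% of nonzero values are not), with FPKM, and whole junction counts for circRNAs. The program behind the estimated counts is not given in the sources used here. The submitters' processing notes list Bowtie 0.12.2 and the genome build mm8, with no role.

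Estimated counts of all rows of a symbol were added up and rounded, with spellings in upper and lower case taken as 1 gene (665 genes). Rows without a symbol (372, with 0.70% to 1.20% of the counts) were left out of gene sums. The 6 libraries were fitted by age with edgeR 4.0.16 (filterByExpr, TMM, quasi-likelihood F test, prior count 0.125, Benjamini-Hochberg adjustment over all tested genes) in R 4.3.3. The looser threshold, a log2 fold change beyond 1 in size whose unadjusted p is under 0.05, is the cut-off of the study's methods. Leave-out fits pool the spread, so the lone library of an age is assumed to vary like the others. DESeq2 1.42.0 and limma 3.58.1 on log2(FPKM + 0.1) were alternatives, with those named in the closing section. Python 3.11.15 and pandas 2.3.3 were used for the tables. The scripts were tested on simulated data.

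The members and lists were chosen with earlier results of these data known. Named are all members, the listed genes called in any comparison, the level checks Cd3e, Cd8a, Cd79a, Csf1r, Ncr1, Prf1 and Il2ra, and the 3 genes most like Foxp3 and Gzma. Klrb1a, Klrb1b, Klrb1f, Egr2, S100a8, S100a9, Itgam, Mzb1, Cd79b, Tnfrsf4, Nrp1 and the transcripts were named after their values were seen. Estimated counts that fall to one transcript or another of a gene depend on the authors' assignment of shared reads. The lncRNA and miRNA tables were not used, and some listed genes are not reported here.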

Additional observations from a re-analysis of the deposited data

How the results depend on the processing

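With 2 mice per age, a single library decides most calls, and a low count (Foxp3, Eomes, Klrb1c at 2W) limits precision further. Of 450 recomputed log2 fold changes of members (30 changes, 15 alternatives), 408 kept their direction and their side of the threshold, 16 passed it anew, 14 no longer passed it and 12 changed sign. The sign changes were those of small changes that were not called: Ikzf2 from 2W to 6W (0.036 with no TMM scaling, 0.108 and 0.105 with limma on FPKM at pseudocount 0.1 and 1, and -0.0751 to 0.0421 over the fits that leave a library out), Gzma from 2W to 6W (-0.0416 to 0.128), Ikzf2 (-0.10 to 0.41), Ctla4 (-0.10 to 0.23) and Tbx21 (-0.48 to 0.26) from 6W to 3M, and Ikzf2 from 2W to 3M (-0.11 to 0.39). The cause of the changes below was not tested.

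Members called from 2W to 6W were 2 with DESeq2, no filter, the 4 libraries compared, limma on FPKM or no TMM scaling, 0 with exact symbols, and 0 to 2 with a library left out. With limma at pseudocount 1 the count stayed at 1, but Nkg7 was called in place of Klrb1c (adjusted p = 0.0585). From 2W to 3M they were 5 with DESeq2 or limma on FPKM and 0 to 3 with a library left out. Members past the looser threshold were 2 from 2W to 6W with limma on FPKM (1 to 2 with a library left out), 1 from 6W to 3M with DESeq2, no filter or the 4 libraries compared (0 to 2) and 3 from 2W to 3M with limma at pseudocount 1 (3 to 5). Member transcripts past it, recomputed with alternatives chosen after seeing the data, were 1 to 3, 0 to 2 and 3 to 6 in the 3 comparisons with a library left out. Of the genes of the other lists, counts without each library were likewise added after seeing the data.

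All genes called from 2W to 6W were 849 with DESeq2, 395 with no TMM scaling, 467 with no filter, 662 with the 4 libraries compared, 124 with exact symbols and 402 with limma on FPKM, against 257, and 0 to 658 with a library left out. The share called higher was 84.8% as reported and 71.6% with DESeq2 and its size factors. From 6W to 3M they were 336 with DESeq2, 19 with no filter, 0 with the 4 libraries compared, exact symbols or limma, and 6 with limma at pseudocount 1, against 1, and 0 to 11. From 2W to 3M they were 1366 higher and 758 lower with DESeq2 and 663 in all with the 4 libraries compared, against 1630 (1171 higher, 459 lower), and 239 to 1741. Past the looser threshold were 240, 121 and 522 genes in the 3 comparisons with limma at pseudocount 1, against 793, 312 and 1385, and 219 to 668 from 6W to 3M with a library left out.

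The sample labels name no pairing by replicate number. The deviations of equally numbered libraries correlated at -0.04 between 2W and 6W, 0.31 between 6W and 3M and -0.09 between 2W and 3M. Each age gives a single deviation per gene, so these values cannot decide whether equally numbered libraries were paired. With a replicate block members called were 0, 0 and 3, the call of Klrb1c from 2W to 6W being lost (edgeR adjusted p = 0.101), all genes called were 5, 0 and 742, and member transcripts past the looser threshold were 1, 0 and 3 from 2W to 6W, 6W to 3M and 2W to 3M.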

Other observations

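Within each library the members can also be set against the summed T cell receptor complex list, as a share of that sum. Klrb1c was 0.0336% and 0.0368% of it at 2W, 0.146% and 0.117% at 6W and 0.249% and 0.348% at 3M. Nkg7 was 0.192% and 0.201%, then 0.350% and 0.335%, then 0.511% and 0.525%. Gzma was 1.59% and 2.02%, then 1.77% and 1.58%, then 3.30% and 2.39%. Foxp3 was 0.0524% and 0.0909% at 2W, 0.0969% and 0.0976% at 6W and 0.0667% and 0.0558% at 3M, so that on this scale the 2W and 3M libraries overlapped. The 3 ages did not overlap for Klrb1c and Nkg7, and for Gzma both 3M libraries lay above the others. The summed list itself was at 2834 to 3257 CPM at 2W, 3263 to 3381 CPM at 6W and 2435 to 2892 CPM at 3M. From 6W to 3M all 8 of its genes had negative log2 fold changes, and none was called by edgeR after adjustment. For 7 both 3M libraries lay below both 6W libraries, against 23.3% of all genes. An unadjusted edgeR p under 0.05 was found for 5, against 14.3%. The shares at 3M also carry this lower sum. These shares were not tested.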
